A study of Drosophila melanogaster with 14 samples.

Results

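The cytoplasmic ribosomal protein genes of Drosophila melanogaster encode the proteins of the large (RpL) and small (RpS) ribosomal subunits. They were taken from the annotation by symbol, with mitochondrial ribosomal proteins left out. No measured value entered this rule, though the set was chosen with earlier results of these data known. The rule gave 92 genes of 13945 protein-coding genes on 6 chromosome arms, 54 of the large and 38 of the small subunit. Open chromatin at their starts was described from ATAC-seq of wing imaginal discs, larval epithelia that give rise to the adult wing. ATAC-seq uses a transposase that cuts and tags accessible DNA. Short fragments mark nucleosome-free DNA and longer ones span a nucleosome. Regenerating discs, damaged by induced cell death, were taken at 0, 15 and 25 h. Control discs had no induction and were taken at the same times, and discs labelled L3 were undamaged and belong to no time point. All came from larvae of the last instar. There were 7 groups, each with 2 libraries made from 10 discs. The labels call regeneration and control separate genotypes and name no allele or driver, so damage and genotype cannot be told apart. Replicates carry only a number in the labels, so p-values reflect variation from library to library that could be technical.

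Ribosomal protein genes are among the most highly transcribed genes of growing cells, and their output is kept in balance across the whole set. In flies, loss of 1 copy of many of them gives the Minute phenotype of slow growth and thin bristles, and Minute cells are eliminated beside normal ones in the wing disc. Many fly ribosomal protein promoters carry a polypyrimidine initiator, the TCT motif, in place of the usual initiator. The TBP-related factor Trf2, the zinc finger protein M1BP and the DNA replication-related element factor Dref have been described at such promoters.

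The sequences of 7 promoters show the 3 motifs counted over all members and some of the genes whose peaks differed between groups or copies. Each is 170 bases long, 120 before the annotated start and 50 from it on, read 5′ to 3′ on the gene's strand from Release 6 of the genome (dm6, RefSeq). Capitals mark the TCT initiator (CTTT with 2 pyrimidines before and 2 after it, on the gene's strand, its C within 10 bp of the start), the DRE (TATCGATA) and the M1BP core (GTGTGACC or its reverse complement). RpL23A (chr3L:1668605-1668774, minus strand) and RpL14 (chr3L:8600886-8601055, plus strand) had 2 of the strongest peaks and carry TCT motifs. RpL7 (chr2L:10200884-10201053, plus strand) has an M1BP core and no TCT motif. RpL40 (chr2L:4227579-4227748, plus strand) and RpS5b (chr3R:14901514-14901683, minus strand) had peaks in some groups only. RpS14a (chrX:7933622-7933791, plus strand) and RpS14b (chrX:7934778-7934947, plus strand) are neighbouring copies, the first with a DRE before its TCT motif.
RpL23A: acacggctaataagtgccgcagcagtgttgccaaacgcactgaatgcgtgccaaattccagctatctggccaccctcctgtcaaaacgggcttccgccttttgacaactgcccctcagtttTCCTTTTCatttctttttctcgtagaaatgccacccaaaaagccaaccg
RpL14: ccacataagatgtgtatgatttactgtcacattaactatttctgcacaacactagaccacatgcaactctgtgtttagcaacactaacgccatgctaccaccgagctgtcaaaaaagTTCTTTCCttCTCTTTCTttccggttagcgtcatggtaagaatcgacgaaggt
RpL7: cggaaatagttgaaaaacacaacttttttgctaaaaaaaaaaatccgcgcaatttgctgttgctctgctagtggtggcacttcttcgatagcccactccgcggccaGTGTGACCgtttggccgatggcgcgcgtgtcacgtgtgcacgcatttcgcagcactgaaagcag
RpL40: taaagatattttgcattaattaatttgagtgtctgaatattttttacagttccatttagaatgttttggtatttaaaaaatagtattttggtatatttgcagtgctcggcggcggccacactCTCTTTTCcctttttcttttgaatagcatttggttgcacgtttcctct
RpS5b: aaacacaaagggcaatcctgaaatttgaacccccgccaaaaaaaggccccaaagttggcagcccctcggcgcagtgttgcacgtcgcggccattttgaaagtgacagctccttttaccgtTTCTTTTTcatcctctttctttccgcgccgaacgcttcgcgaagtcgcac
RpS14a: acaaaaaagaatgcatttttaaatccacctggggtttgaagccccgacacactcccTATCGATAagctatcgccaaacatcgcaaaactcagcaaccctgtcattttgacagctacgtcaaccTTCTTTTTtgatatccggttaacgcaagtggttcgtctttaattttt
RpS14b: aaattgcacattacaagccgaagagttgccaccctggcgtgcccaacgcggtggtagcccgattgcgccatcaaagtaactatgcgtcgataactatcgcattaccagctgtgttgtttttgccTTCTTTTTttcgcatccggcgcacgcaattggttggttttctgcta

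The TCT motif set the members apart from other promoters by count. It lay at the canonical start of 50 of 92 members (54.3%) and of 1.15% of all 13945 promoters. At any annotated start it was found in 70 members (76.1%) and in 1.74% of all genes. The usual initiator, spelled TCAGT, lay at the start of 1 member, RpL23A (1.09%), and of 13.6% of all promoters. In the 300 bp from 250 before the start, counted on both strands and with overlaps between motifs allowed, the DRE was in 28 members (30.4%, against 8.94% of all promoters). Over the 5175 other genes whose start region had a peak in all 14 libraries the DRE share was 12.5%. The M1BP core was in 13 (14.1%, against 7.54% of all promoters and 13.0% of those 5175), and the E-box CACGTG, the kind of site that Myc and Max bind, in 11 members, against 4.26% of all promoters. The TATA box, spelled TATAAA and counted on the gene's strand, was in 32.6% of members and in 32.2% of all promoters. Within 100 bp on each side of the start the TATA shares were 8.70% of members and 20.9% of all promoters. A core of the Trithorax-like factor, spelled GAGAG, was in 17.4%, against 30.2%. The median GC content of members was 37.5% (26.0% to 49.3%). A match is a description of the letters, and no binding was measured.

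Nearly all ribosomal protein genes had an accessible start. The nucleosome-free peaks of the 14 libraries merged into 33226 regions, of which 98 lay within 200 bp of a start of a member. At least 1 such region was found for 84 of 92 members (91.3%), against 7823 of 13853 other protein-coding genes (56.5%). A peak at a start in all 14 libraries was found for 63 members (68.5%), against 37.6% of the other genes. For RpS26 and RpL35 it took 2 regions together to reach all 14, and in the other 61 a single region did so. The start region of a gene was the region within 200 bp of a start with a peak in the most libraries. Where several tied, it was the nearest of them. Presence thus entered this choice, for members and other genes alike. The large subunit contributed 38 of its 54 genes to these 63 and the small subunit 25 of its 38. By chromosome, they were 14 of 19 members on 2L, 12 of 21 on 2R, 10 of 14 on 3L, 14 of 23 on 3R, 12 of 14 on X and the single member on chromosome 4, RpS3A. RpL5, RpL15 and RpL38, which are known to lie in or next to pericentromeric heterochromatin, were among the 63. A peak in all 14 libraries was seen for 36 of the 50 members with the TCT motif at the canonical start and for 27 of the 42 without it. With the motif at any annotated start, a definition chosen after seeing the data, it was 52 of 70 with and 11 of 22 without. Of the 28 members with a DRE, 16 did, and of the 64 without it, 47.

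The remaining members fell into genes with peaks in some libraries and genes with none. There were 21 members with a start peak in 1 to 13 libraries. Among them RpL13A, RpL24-like and RpS15Ab had it in 13, RpL18, RpL32 and RpS27A in 12, RpL10Ab, RpS2 and RpS25 in 11, and RpL40 in 10. RpS24 had it in 9, RpS14b and RpS5b in 8, RpL19 and RpL26 in 6, RpL39 in 5, RpL7-like in 4 and RpL34a and RpS23 in 2. RpS27A and RpL40 encode ribosomal proteins fused to ubiquitin. No region lay within 200 bp of a start of 8 members, RpL10Aa, RpL22-like, RpL37-2, RpLP2, RpS10a, RpS14a, RpS19b and RpS28-like. RpLP2, a protein of the ribosomal stalk, had its nearest region 238 bp away, RpS14a 270 bp and RpS19b 285 bp, each with a peak in all 14 libraries. A missing peak says that the caller's threshold was not passed, not that the start was closed.

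**Figure D1:**
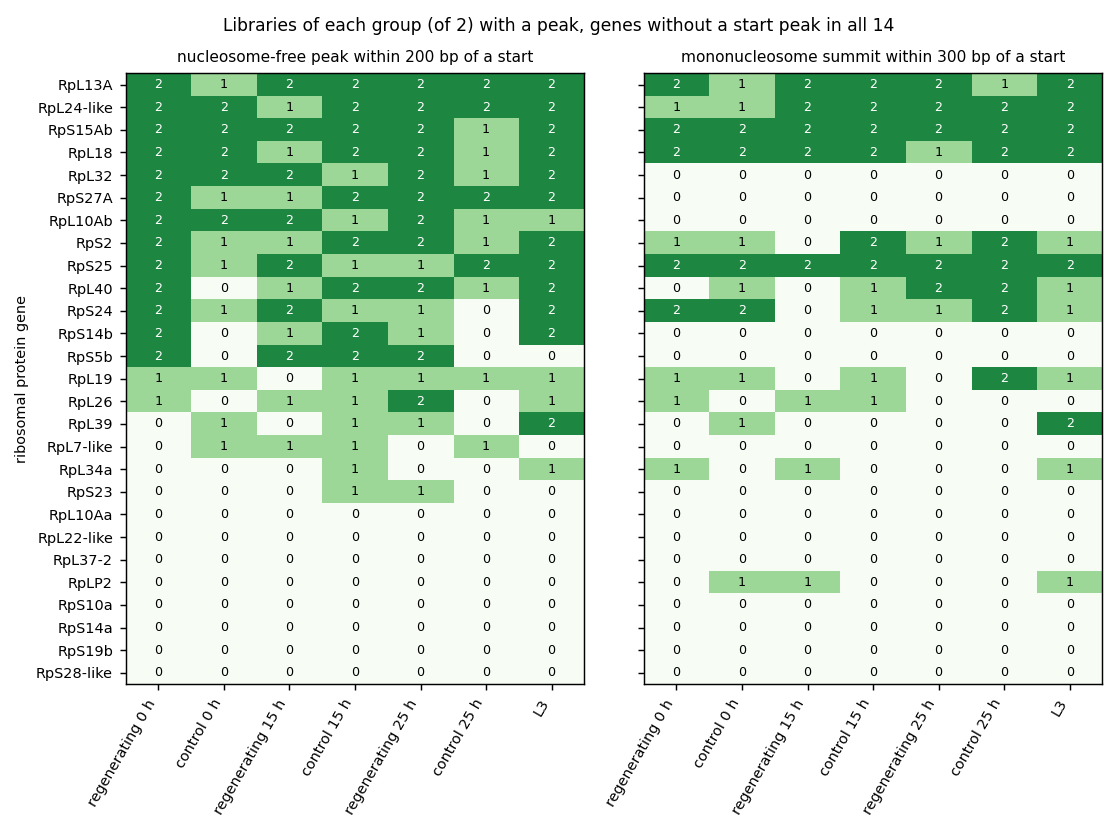
Number of libraries of each group (0, 1 or 2) with a nucleosome-free peak within 200 bp of a start (left) and a mononucleosome summit within 300 bp (right), for members without a start peak in all 14 libraries. On the left, RpS5b has both libraries in the 3 regenerating groups and in the 15 h control only, and the 8 genes in the lowest rows have none. On the right, RpLP2, 1 of these 8, has a summit in 3 libraries.

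Genes present in several copies mostly differed in their peaks. RpS10b, RpS19a, RpL37-1 and RpL22 had a start peak in all 14 libraries, and their counterparts RpS10a, RpS19b, RpL37-2 and RpL22-like in none. RpS28a and RpS28b had one in all 14 and RpS28-like in none, RpL34b in all 14 and RpL34a in 2, and RpL10Ab in 11 and RpL10Aa in none. RpS5a had a peak in all 14 libraries and RpS5b, a copy used mainly in the germline, in 8. Both copies were called in RpS15Aa (14) and RpS15Ab (13). RpL24 (14), RpL7 (14) and RpLP0 (14) were set beside RpL24-like (13), RpL7-like (4) and RpLP0-like (14), which resemble assembly factors of the ribosome known from yeast. RpS14a had none and RpS14b 8, although the genes are 74.8% identical over 976 aligned positions and their promoters 50.5%. Of the 451 windows of 50 bp within 250 bp of a start, none occurred a second time in the genome for any member except RpS15Ab, where 33 did (7.32%).

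The peaks of members called in some libraries were weak or stood on a high background. The summit pile-up, the number of fragments over the highest base, and the local background were solved from the authors' fold and p. Over the 21 genes the median of the summit pile-up was 28.0 fragments, with a range of 20.0 to 61, against 59.5 (24.5 to 125) for the 61 genes whose start region had a peak in all 14 libraries. The local background exceeded 6 fragments in 7 of the 21 genes and in 7 of the 61. RpS23 had 61 fragments at the summit over a background of 17.2, and RpS14b 36.5 over 9.77, whereas RpS5b had 22.5 over 3.07. The number of members with a peak was 72 to 81 in the 6 regenerating libraries, 68 to 82 in the 6 control libraries and 80 and 76 in L3. The lowest, 68, was in control 0 h replicate 1, which also had the lowest genome background of all libraries, 1.62 fragments, against 2.27 to 3.67 in the others. The part of this background in the presence calls was not tested. Of the gained regions described below, RpL40, RpS14b and RpL26 are given with their local background.

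The authors' fold enrichment is their own value and was used only to rank peaks within 1 list, as a percentile. Among start regions with a peak in all 14 libraries, the median percentile was 85.9 for the 61 members and 81.0 for 5175 other genes. It was at 95 or higher for 15 members (24.6%) and for 15.6% of the others. At 90 or higher the shares were 31.1% and 28.9%, and at 99 or higher 1.64% and 2.57%, so the order depended on the cutoff. Large-subunit genes had a median of 86.4 and small-subunit genes of 79.8. Among the 10 highest were RpL38 (99.4), RpL23A (98.7), RpL15 (97.7), RpL14 (97.2), RpS27 (97.2), RpL3 (97.0), RpS30 (97.0), RpL34b (96.9) and RpL7, whose median of 96.4 RpS29 shared. In every one of the 14 libraries RpL38 was between 98.6 and 99.8. In mouse, Rpl38 is known for its part in the translation of Hox mRNAs. RpL3 is the large-subunit protein closest to the peptidyl transferase centre. The 5 lowest were RpS21 (37.2), RpS19a (42.2), RpL12 (43.9), RpS20 (45.8) and RpL17 (46.1). RpL17 had as many as 77.0 fragments at its summit over a local background of 12.5, so its low fold went with a high background and not with few fragments. Members with a TCT motif at the canonical start had a median percentile of 85.0 and those without of 86.2.

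**Figure D2:**
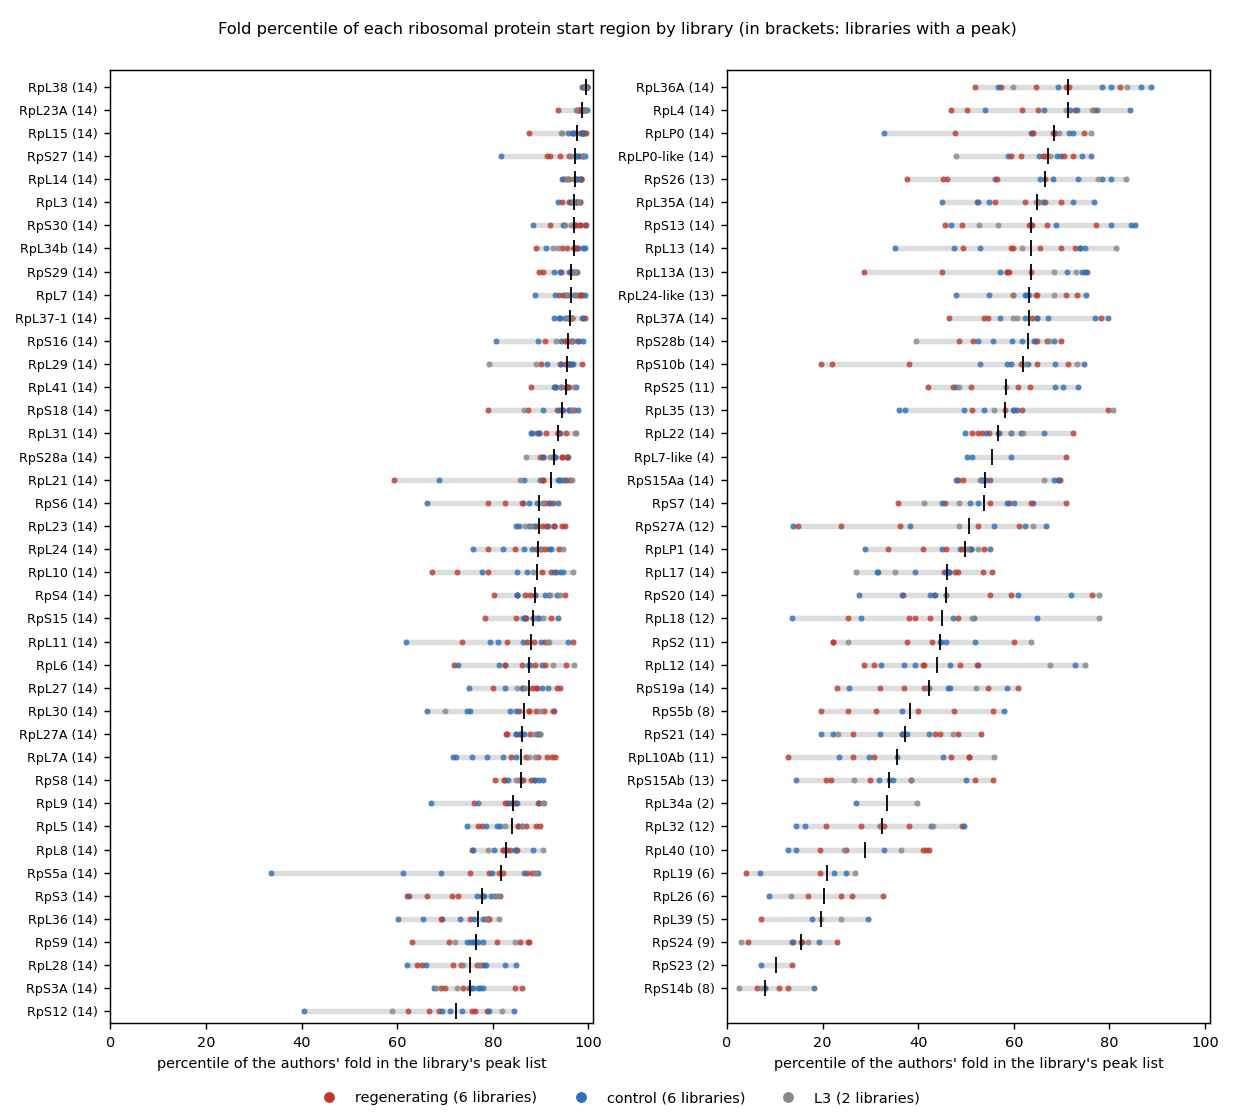
Percentile of the authors' fold in each library's own peak list (x axis) for the start regions of members, ordered by median (black tick), with 1 point a library. The grey bar spans the range, and regenerating, control and L3 points overlap in most rows, with RpL38 highest and RpS14b lowest.

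Regenerating, control and L3 discs were set side by side for the members with the highest and the lowest median, RpL38 and RpS21, ranked among the 13545 regions with a peak in all 14 libraries, so that each library ranked the same set. RpL38 had percentiles of 99.4 and 98.8 in regenerating 0 h, 99.5 and 98.8 in control 0 h, 97.7 and 99.2 in regenerating 15 h, and 99.7 and 98.3 in control 15 h. It had 98.7 and 99.2 in regenerating 25 h, 98.4 and 99.6 in control 25 h, and 99.1 and 98.8 in L3. The RpL38 groups overlapped at each time. RpS21 had 15.7 and 18.3 in regenerating 0 h, 17.4 and 6.5 in control 0 h, 21.2 and 6.6 in regenerating 15 h, and 18.8 and 5.1 in control 15 h. It had 29.1 and 23.8 in regenerating 25 h, 22.5 and 14.9 in control 25 h, and 4.7 and 25.6 in L3. The RpS21 groups overlapped at 0 and 15 h, and at 25 h both regenerating libraries were above both controls.

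The open window at ribosomal protein starts was narrow. The median width of the peak was 160 bp for the 61 members and 181 bp for the other 5175 genes. The upper quartiles lay further apart, at 198 bp and 295.5 bp, and a width of at least 300 bp was reached by 1 member (1.64%) and by 24.6% of the others. That member was RpL5 (370 bp), a protein of the particle that brings 5S rRNA into the ribosome. RpL30 (286.5 bp), RpL3 (261.5 bp), RpL41 (247 bp) and RpS15Aa (242.5 bp) followed. The narrowest were RpS10b (86.5 bp), RpS21 (88 bp), RpS13 (96 bp), RpL12 (99 bp) and RpLP1 (99 bp). A second coding gene started within 200 bp of the start region of 20 of 84 members (23.8%), close to the share of other genes (26.3%). These included RpL13 beside Dref, RpL14 beside Nelf-E and RpS28a beside Axn, and the peak cannot be assigned to either gene of such a pair.

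**Figure D3:**
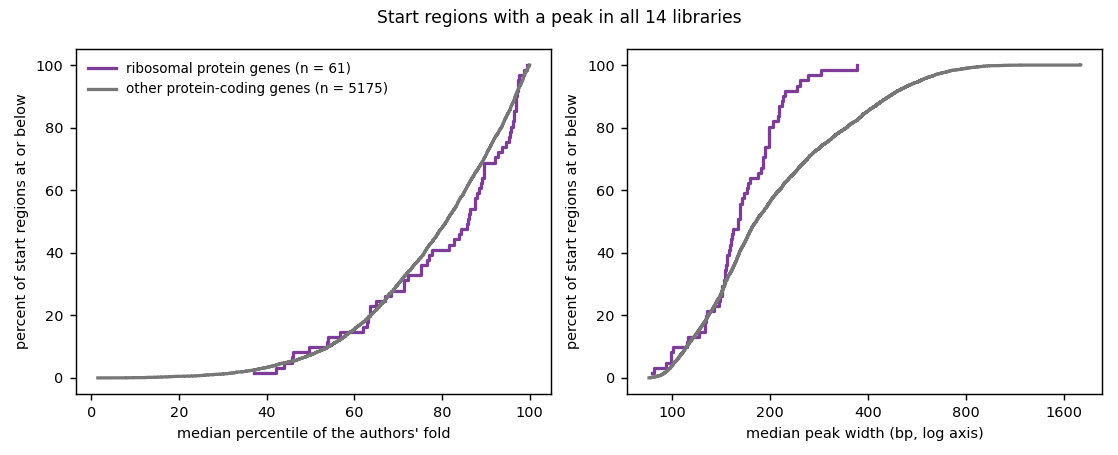
Cumulative share of start regions with a peak in all 14 libraries (y axis, percent) by median percentile of the authors' fold (left) and by median peak width in bp on a log axis (right), for 61 ribosomal protein genes and 5175 other protein-coding genes. The fold curves run close together (medians 85.9 and 81.0), and the width curve of the members ends at 370 bp.

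The accessible base with the highest pile-up lay just before the start. The nucleosome-free summit was at a median of -34 bp from the nearest start for members and of -35 bp for other genes. It lay within 100 bp of the start in 55 of 61 members (90.2%), against 76.4% of the others, and upstream in 90.2%, against 82.8%. The farthest was that of RpS28a, at -178.5 bp. Among the summits that lay inside the gene were those of RpL7 (16.5 bp), RpS21 (22 bp), RpS6 (27 bp) and RpL37A (31 bp). RpS6 is the substrate of the growth-regulated kinase S6k.

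Mononucleosome summits were sought within 300 bp of the same starts. They were present in all 14 libraries for 27 of 92 members (29.3%), against 21.8% of other genes, and in none for 21 (22.8%), against 48.4%. Among the 61 members whose start region had a peak in all 14 libraries, however, 23 (37.7%) had a mononucleosome summit in all 14, against 49.7% of the 5175 others. In none of the libraries was one found for 7 of the 61 (11.5%, against 8.27%), namely RpL4, RpL8, RpL12, RpL28, RpL35A, RpS12 and RpS18. RpS12 is known in the fly as the ribosomal protein through which Minute cells are marked for elimination. Upstream summits lay at a median of -157.5 bp in members (33 genes) and -143 bp in others, and downstream ones at 98 bp (55 genes) and 123 bp.

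**Figure D4:**
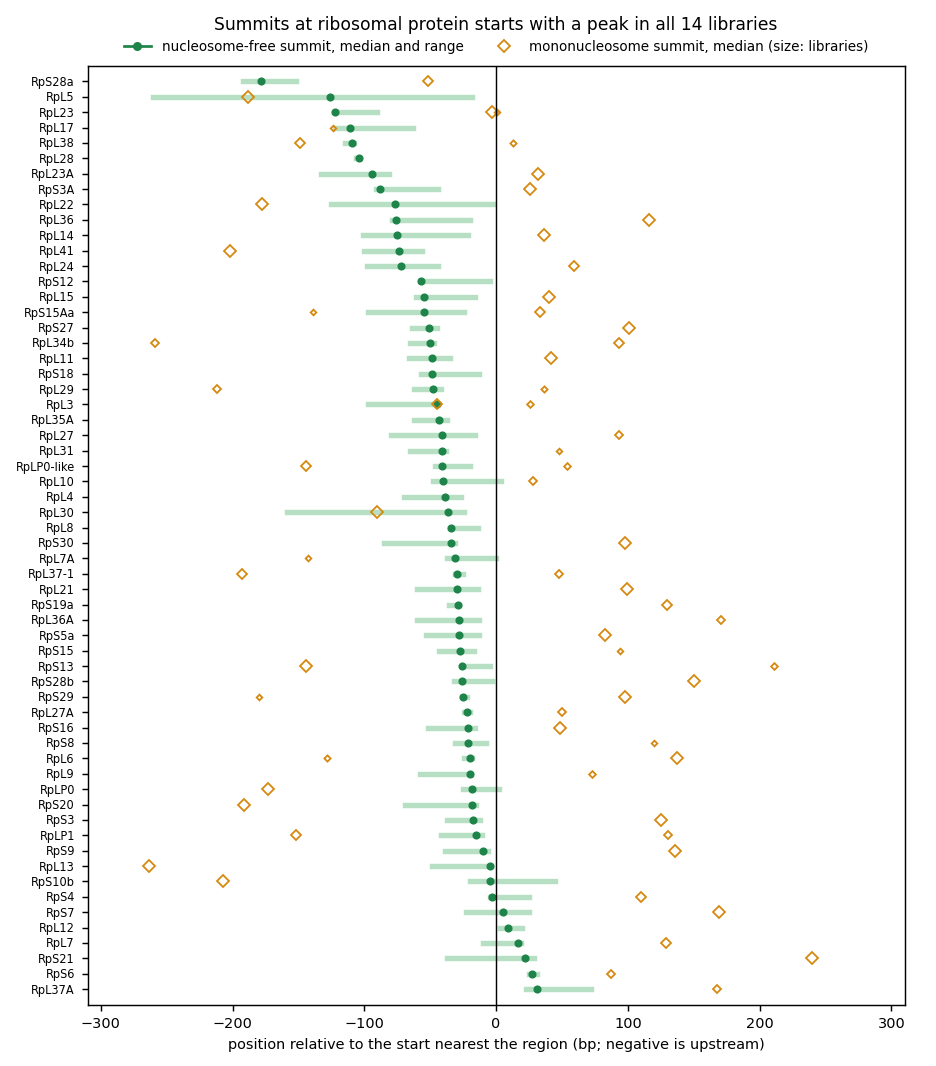
Position relative to the nearest start (x axis, bp, negative is upstream) of the nucleosome-free summit (circle, median; bar, range over 14 libraries) and of mononucleosome summits (diamonds, median; larger where more libraries had one) at members whose start region had a peak in all 14 libraries. Most circles lie just upstream of the start (median -34 bp), and the diamonds flank them on 1 side or both.

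Whether damage changed the peaks was asked first by presence. A region was counted as gained at a time when both regenerating libraries and neither control library had a peak, and as lost when the reverse held. At 0 h, 3 of the 92 member regions with a peak in any of the 4 libraries were gained (3.26%, against 4.48% of all regions) and 0 were lost (0.691% of all). At 15 h, 0 of 95 were gained (2.59% of all) and 0 lost (2.06% of all). At 25 h, 3 of 92 were gained (3.26%, against 4.34%) and 1 was lost (1.09%, against 1.09%). The members' shares were thus at or below those of all regions at each time, with regions that cannot be called included. A region with a peak in all 14 libraries cannot be gained or lost, whichever library is left out. Such regions were 63 of the 98 member regions and 13545 of all 33226. Shares among the regions that could be called were not computed, so these shares do not show that members changed less. Leaving out 1 library loosens the rule. At 0 h the gained count was then 6 without regenerating 0h replicate 2 (6.59% of member regions, against 8.72% of all) and 10 without control 0h replicate 2 (11.1%, against 12.5%). At 15 h it was 4 without regenerating 15h replicate 1 (4.21%, against 9.02%) and 5 without control 15h replicate 2 (5.49%, against 7.54%). At 25 h it was 8 without regenerating 25h replicate 1 (8.79%, against 10.2%), 6 without control 25h replicate 1 (6.52%, against 7.27%) and 8 without control 25h replicate 2 (8.79%, against 8.81%). The lost count at 0 h was 1 without regenerating 0h replicate 1 (1.12%, against 1.32%), 1 without regenerating 0h replicate 2 (1.10%, against 2.72%) and 2 without control 0h replicate 1 (2.17%, against 5.18%). At 15 h it was 2 without regenerating 15h replicate 1 (2.11%, against 3.55%) and 7 without regenerating 15h replicate 2 (7.69%, against 6.73%). It was 4 without control 15h replicate 1 (4.26%, against 8.25%) and 1 without control 15h replicate 2 (1.10%, against 5.79%). At 25 h it was 3 without regenerating 25h replicate 2 (3.45%, against 3.55%) and 2 without control 25h replicate 1 (2.17%, against 4.89%).

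RpS5b was the only member region gained at more than 1 time (chr3R:14901543-14901690). Its fold was 4.40 and 7.80 in regenerating 0 h, where neither control had a peak. It was 4.87 and 3.82 in regenerating 15 h and 7.06 and 5.17 in control 15 h. It was 5.95 and 5.35 in regenerating 25 h, where again neither control had a peak, and no peak was listed in L3. All 6 regenerating libraries and 2 of 8 undamaged ones thus had the peak. Its −log10 q was between 5.21 and 19.2 and its summit pile-up between 16.0 and 31.0 fragments. With no peak the level in the other libraries is unknown, and the presence call has no test at 2 libraries a group.

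Among the other gained regions were peaks of low rank that undamaged libraries of other times also had. RpL40 (chr2L:4227623-4227750), gained at 0 h, had fold 5.54 and 4.37 in regenerating 0 h and no peak in either control, but both L3 libraries (4.50 and 5.60) and both 15 h controls (5.06 and 3.71) had it. RpS14b (chrX:7934788-7934893), gained at 0 h with 3.60 and 3.32, also had both 15 h controls and both L3 libraries. RpL26 (chr3L:18898759-18898853), gained at 25 h, had 4.44 and 4.28 in regenerating 25 h and no peak in either 25 h control. Control 15 h replicate 2 and L3 replicate 1 also had the RpL26 peak. RpL40, RpS14b and RpL26 had local backgrounds of 6.27 to 9.77 fragments, against a median of 3.41 over the 61 members in all 14 libraries. The lost region at 25 h was a second region of RpS9 (chr3L:9511133-9511297) with a peak in 3 libraries, while its start region had a peak in all 14.

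Mononucleosome summits gained or lost with damage were few. By the same rule for genes, 0 of 92 members gained or lost a summit at 0 h (0.667% and 0.595% of all 13945 genes). At 15 h, RpL7 gained one (0.839% of all genes gained) and RpS2 and RpS28a lost one (0.71%). At 25 h no member gained one (0.724%) and RpL9, RpL19 and RpS19a lost one (1.61%). The members' share was above that of all genes for summits gained at 15 h and lost at 15 and 25 h. Each of these shares rests only on the genes named. RpL7 had the summit, at a median of 129 bp downstream, in both regenerating and neither control library at 15 h, in 1 regenerating and no control library at 25 h, and in both libraries of regenerating 0 h, control 0 h and L3. Members with a summit in both libraries of a group numbered 47 in regenerating 0 h against 49 in control 0 h. They numbered 41 in regenerating 15 h against 39 in control 15 h, and 36 in regenerating 25 h against 51 in control 25 h. Regenerating 25 h replicate 1 had summits at 39 members and at 32.6% of other genes, the lowest shares of the 14 libraries. Without regenerating 25h replicate 1 the number lost at 25 h was 6, and without regenerating 25h replicate 2 it was 13. Leaving out 1 library gave 0 to 4 gained and 1 to 6 lost members at 0 h, 2 to 5 gained and 2 to 4 lost at 15 h, and 0 to 2 gained at 25 h. Leaving out a library loosens the rule, and the shares of all genes were not computed for it. These counts therefore cannot be read as particular to the members.

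The strength of the peaks was compared over the same 13545 regions. Of these, 63 were member regions (61 start regions and 2 second ones). The percentile of the fold was fitted by limma with Benjamini-Hochberg adjustment over all 13545. No member region passed an adjusted p of 0.05 at 0, 15 or 25 h or over the 3 times. Of all regions 0.0443% passed at 0 h, 0.0% at 15 h, 0.0221% at 25 h and 0.672% over the 3 times. At an unadjusted p under 0.05 the members numbered 5 at 0 h (7.94%, against 9.06% of all), 10 at 15 h (15.9%, against 9.02%), 3 at 25 h (4.76%, against 8.67%) and 4 over the 3 times (6.35%, against 11.5%). The smallest adjusted p of a member was 0.410, 0.327 and 0.396 at the 3 times and 0.114 over them.

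The members' differences were spread on both sides of 0. The median difference, regenerating minus control, was 0.59 percentile points at 0 h, -3.50 at 15 h and 1.02 at 25 h, and that of all regions was -0.47, 0.38 and -0.63. The median at 0 h was -0.30 without control 0h replicate 1 and that at 25 h -0.72 without control 25h replicate 2, so their direction rested on 1 library. At 15 h 20 of 63 members were higher in regenerating discs, and at 0 and 25 h 32 and 34 were. The change between 15 and 25 h, tested as an interaction in limma, had a median of 5.81 points with 49 of 63 members positive, against -1.07 for all regions, and no member passed the adjustment (5 with an unadjusted p under 0.05, 7.94%, against 8.06% of all regions). A single member's difference had a median standard error of 7.55 points at 1 time, which limits what 2 libraries a group can show. Over the 15 h libraries themselves, the median percentile of the 61 start regions among the 13545 was 72.4 and 66.4 in regenerating discs and 72.0 and 74.6 in controls, so the groups overlapped.

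**Figure D5:**
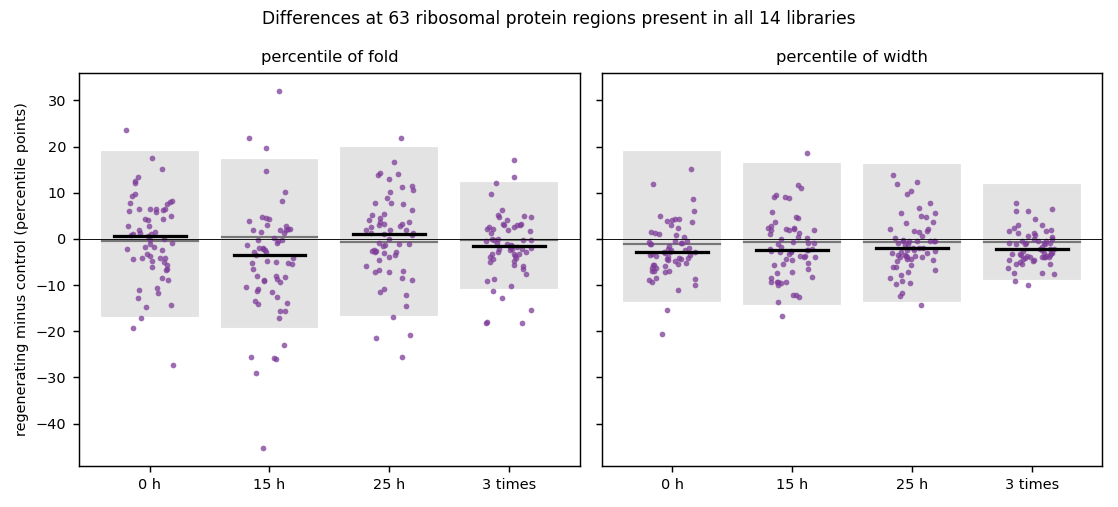
Difference in percentile, regenerating minus control (y axis, percentile points), at 0, 15 and 25 h and over the 3 times, for the fold (left) and the width (right) of 63 member regions (points; black line, median). The grey band runs from the 5% to the 95% point of all 13545 regions, with their median as a grey line, and the members' medians stay between -3.50 and 1.02 points.

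In peak width, too, no member passed the adjusted p of 0.05 in limma. The share of all regions that passed an adjusted p of 0.05 was 0.0886% at 0 h, 0.0664% at 15 h, 0.0738% at 25 h and 0.192% over the 3 times. At an unadjusted p under 0.05 there were 4 (6.35%, against 8.67% of all), 6 (9.52%, against 6.35%), 5 (7.94%, against 6.41%) and 7 (11.1%, against 11.5%) members. The members' median differences in width rank, regenerating minus control, were -2.80, -2.29 and -1.94 points at 0, 15 and 25 h, against -1.11, -0.57 and -0.73 over all regions. On the log2 scale of width the medians were 0.05, -0.01 and 0.05, with 44, 25 and 44 of 63 members positive, and those of all regions 0.08, 0.02 and 0.05. In width rank 17, 23 and 20 of 63 members were positive. The direction at 0 and 25 h thus turned with the scale, for the members and for all regions alike. In width rank the 15 h median was 0.72 without control 15h replicate 1, and the 25 h median 0.25 without control 25h replicate 1. Leaving out control 15h replicate 2 brought 1 member past the threshold at 15 h, RpL27A (-24.2 points, limma adjusted p = 0.0465), where 0.701% of all regions passed. Control 15 h is then a single library, assumed to vary like the other groups.

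Between L3 discs and the mean of the 3 control groups no member passed the adjusted p of 0.05 in limma, in fold rank (0.00738% of all regions passed) or width rank (0.0%). With an unadjusted p under 0.05 there were 8 members (12.7%, against 8.47% of all regions) in fold rank and 5 (7.94%, against 5.98%) in width rank. The median difference of the members, L3 minus controls, was 0.94 points in fold rank and -2.59 in width rank, against -0.47 and -0.81 over all regions. It was -0.19 with the authors' −log10 p and -1.87 with the summit pile-up in place of the fold, and 0.03 on the log2 scale of width. Over all regions these medians were -0.01, -0.06 and 0.06.

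RpL7A, a large-subunit protein, came closest to a call over the 3 times, and it was singled out after its values were seen. Its percentile of the fold among the 13545 regions was 74.0 and 81.5 in regenerating 0 h, against 78.8 and 57.1 in control 0 h. At 15 h it was 88.9 and 86.5 in regenerating discs, against 72.0 and 63.8 in controls, and at 25 h 77.7 and 85.3, against 63.5 and 55.8. Both regenerating libraries were above both controls at 15 and 25 h, and the groups overlapped at 0 h. The L3 libraries had 78.1 and 81.9, within the range of the regenerating ones. Averaged over the times, RpL7A was 17.1 ± 3.99 points higher in regenerating discs (SE, limma adjusted p = 0.114). With the authors' −log10 p in place of the fold the difference was 24.6 points (limma adjusted p = 0.0414), where 1.06% of all regions passed. With the summit pile-up the difference was 27.8 points (limma adjusted p = 0.0191), where 0.88% of all regions passed. In both, RpL7A was the only 1 of 63 member regions to pass. Without control 0h replicate 1 it was 20.8 points (limma adjusted p = 0.0402). These were the 3 of 20 alternatives in which RpL7A passed, the pile-up one chosen after seeing the data. In the other 17 it did not pass, and over all 20 the limma adjusted p lay between 0.0191 and 0.247, with the difference positive in each.

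RpS26, a small-subunit protein, had no peak in its start region in 1 library, where a second region had one, and so was ranked only where regions in at least 12 libraries were allowed, with a missing peak ranked lowest. Its percentile was then 0.6, for the missing peak, and 26.8 in regenerating 0 h, against 50.8 and 59.2 in control 0 h. It was 56.9 and 28.4 in regenerating 15 h, against 56.4 and 62.8 in control 15 h. It was 22.0 and 41.5 in regenerating 25 h, against 73.5 and 74.8 in control 25 h, and 76.2 and 70.7 in L3. At this start region regenerating libraries were below controls at 0 and 25 h without overlap, and at 15 h the groups overlapped. The second region of RpS26 did not share this direction. It had 36.4 and 16.7 in regenerating 0 h, against 3.1 and 53.4 in control 0 h. At 25 h it had 47.3 and 41.6 in regenerating discs, against 1.4 and 32.5 in controls, so there the regenerating libraries were higher. Its values of 3.1 and 1.4 stand for missing peaks. The difference of the start region over the 3 times was -33.5 points (limma adjusted p = 0.0492), with 1 of its values set by the missing peak. In that setting 1 of 76 member regions and 0.973% of all 16643 regions passed.

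Genes that make or use ribosomes were read beside the members. All 6 genes of the promoter factors had a start region, and 4 (Dref, Trf2, Myc and pzg) had a peak in all 14 libraries, while M1BP had it in 13 and Max in 5. The Max region was gained at 25 h. Of 7 growth-control genes 5 had a peak in all 14 libraries, among them S6k, Thor, raptor and Rheb. Of 11 nucleolar and RNA polymerase I genes 8 did, with Nop56 (99.1) and Nopp140 (98.6) at fold percentiles close to RpL38. Polr1B, a polymerase I subunit, had 1 region gained at 0 h and another lost at 25 h. Of 14 translation factors 10 had a peak in all 14 libraries, and all 4 ribosome-associated genes (sta, Rack1, Nacalpha and bic) and all 5 genes of the response to ribosomal protein loss did, among them Xrp1, a transcription factor of the Minute response, and Irbp18, Ilp8 and RpS12. No gene of the growth-control, translation, ribosome-associated or ribosomal protein loss lists was gained or lost at any time. As a check of the tissue, all 6 wing disc markers (nub, vg, sd and ap among them) had a peak in all 14 libraries, as did 2 of 4 myoblast and 2 of 3 tracheal genes. None of 5 hemocyte and none of 3 fat body genes had one, and srp (12 libraries) was the only one of these 8 with a region.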

How the data were processed

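The deposited files were peak lists, 1 of nucleosome-free and 1 of mononucleosome fragments for each of the 14 libraries. The submitters' processing notes name STAR 2.4.0j, MACS2 and dm6. The peak threshold, fragment length limits and transposase offset were not given in the sources used here. Beside its position, every deposited peak has the authors' fold (a ratio of pile-up over the caller's background), −log10 p, −log10 q and a score. The authors' lists give no read counts, so depth per library is unknown. Fold and p were solved under a Poisson model for the whole-number summit pile-up and the local background, with a tolerance of 0.001 on log10 p, for 99.95% to 100% of peaks of a list. Such pile-ups carry counting error only.

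Lists held 19174 to 24139 nucleosome-free and 11145 to 13387 mononucleosome peaks. Peaks of all libraries were merged where they overlapped or touched (Python 3.11.15, pandas 2.3.3, numpy 2.4.6, scipy 1.17.1, matplotlib 3.10.9). A region belonged to a gene within 200 bp of any annotated start (BDGP6.54, Ensembl release 115). Its start region was the one with a peak in the most libraries, and the nearest where several tied. The highest fold and the summed width within a region were used. limma 3.58.1 in R 4.3.3 was fitted to percentiles over 7 group means, with Benjamini-Hochberg adjustment over 13545 regions and a threshold of 0.05, and was tested on simulated data. Motifs were read from the Release 6 genome at the canonical start. Every member entered each count. Named were members without a peak in all libraries, with a gained or lost peak or past the threshold, the 10 highest and 5 lowest by fold, the 5 widest and narrowest, copies, members near pericentromeric sequence and up to 4 genes of each other list. Some members these rules would name are not reported here, but they entered every count. Whether equal replicate numbers pair libraries is not given in the labels. Correlations of their deviations were -0.22 to 0.24, with 7 of 21 pairs of groups over 0.1, and cannot decide it. The members and lists were chosen with earlier results of these data known. Alternatives covered peak threshold, distances, list length, overlap, the measure ranked, the replicate block and leaving out each library. Those chosen after seeing the data were the summit pile-up, a crossed pairing at 0 h, a stricter overlap and the TCT motif at any annotated start.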

Additional observations from a re-analysis of the deposited data

How the results depend on the processing

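Of 502 recomputed values, 439 kept the result and 12 turned round in direction, all of them medians over the member regions, none of which had a test. In fold rank the median was -0.41 at 0 h with regions in at least 12 libraries, -0.60 at 25 h with summit pile-up, and for L3 minus controls -0.19 with −log10 p and -1.87 with summit pile-up. On the log2 scale of width it was 0.05 at 0 h, 0.05 at 25 h, 0.03 over the 3 times and 0.03 for L3 minus controls. On that scale the medians of all regions were 0.08, 0.05, 0.05 and 0.06. Without 1 library the median ran in fold rank from -0.30 to 1.71 at 0 h and -0.72 to 1.95 at 25 h, and in width rank from -4.19 to 0.72 at 15 h and -3.47 to 0.25 at 25 h. The count of member regions in all 14 libraries (63) was 63 to 66 without 1 library. Regions lost at 25 h numbered 0 with −log10 q of at least 5 and 0 with equal list lengths, those lost at 0 h 1 with equal list lengths, those lost at 15 h 1 within 500 bp of a start, and those gained at 15 h 1 where peaks had to cover at least 50% of the region. Without 1 library, 3 to 10 regions were gained at 0 h, 0 to 5 at 15 h and 3 to 8 at 25 h, and 0 to 2, 1 to 7 and 1 to 3 were lost. The planned overlap rule was met by every peak and changed nothing. In limma over the 3 times, 1 member passed in fold rank with −log10 p (RpL7A), 1 with regions in at least 12 libraries (RpS26) and 1 with summit pile-up (RpL7A), and 0 to 1 without 1 library. In width rank at 15 h it was 0 to 1. In fold rank over the 3 times, 1.06% of all regions passed with −log10 p, 0.973% with regions in at least 12 libraries and 0.88% with summit pile-up. With the replicate block 0 members passed in either measure. With the numbers crossed at 0 h, which was run for the fold rank only, 0 passed. The labels do not say whether equal numbers share a batch. In each regenerating and control group replicate 1 had a lower genome background than replicate 2, and in L3 a higher one. Over all 84 start regions of members the median percentile of the fold was 71.8, against 67.7 for those of 7823 other genes. The members' median was 52.5 when these regions were ranked among start regions only. A mononucleosome summit in all libraries was found at 11 members within 200 bp, and at 27 to 30 without 1 library. Within 200 bp 1 summit was lost at 0 h, and within 500 bp 4 were lost at 15 h and 1 gained at 25 h. Without 1 library, 0 to 4 summits were gained at 0 h, 2 to 5 at 15 h and 0 to 2 at 25 h, and 1 to 6, 2 to 4 and 3 to 13 were lost. The shares of all genes under that loosened rule were not computed. The nucleosome-free summit lay at a median of -26.5 bp from the start farthest upstream. The TATA box was in 8.70% of members within 100 bp on each side of a start, a shorter window, against 20.9% of all promoters, and the TCT motif in 76.1% at any annotated start. The causes of these shifts were not tested. Genome background ranged from 1.62 to 3.67 fragments, and its part in the presence calls was not tested. A missing peak gives no level.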
